A study of Rattus norvegicus with 15 samples.

Results

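The comparison described here sets blood DNA of diabetic rats given the Luo-tong formula (LTF), a Chinese herbal formula, together with insulin against blood DNA of rats that were never made diabetic. Its 6 arrays, 3 titled as LTF treatment and 3 titled as control Sprague Dawley rats, were taken from the 15 arrays of the study by their titles, and each array was 1 biological replicate. The study profiled DNA methylation in peripheral blood of male Sprague Dawley rats in 5 groups of 3, after modelling diabetic retinopathy, a disease of the small vessels of the retina. The rats entered at 8 weeks of age and were 20 weeks old at sampling. LTF rats had received streptozotocin, a toxin of pancreatic beta cells, at 45 mg/kg into a vein and counted as diabetic when blood glucose, read 72 h later, stayed above 13.9 mmol/l for 3 consecutive days. They were then given LTF at 2 g/kg per day by gavage and insulin at 1.5 IU per day into a vein. Control rats had received citric buffer in place of streptozotocin and drank distilled water, with neither insulin nor formula. The 3 other groups, all streptozotocin diabetic, were the untreated diabetic retinopathy (DR) model on distilled water, rats given calcium dobesilate (CaD) at 0.25 g/kg per day with the same insulin dose, and rats given another Chinese formula, here the second formula, for which the sources used here give neither a dose nor insulin. LTF and control rats thus differ in diabetes, formula and insulin at once, and these cannot be told apart in this contrast. Whole peripheral blood holds many cell types and the arrays carry no gene names here, so neither the tissue nor its mix of cells was checked against markers, and a change in that mix and a change within cells cannot be told apart.

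In mammals, methyl groups sit mostly on cytosines followed by guanine. CpG-rich promoters of active genes are usually free of them, while most of the remaining genome carries them, and gene families that are silent in blood, such as olfactory receptors, often lie in AT-rich, CpG-poor DNA. Methylated DNA immunoprecipitation (MeDIP) uses an antibody against methylated cytosine, so its yield rises with both the methylation and the density of CpGs in a fragment. The recovered DNA was labelled with Cy5 and input DNA with Cy3, in this orientation on every array. The measurement is log2(MeDIP/input), centred on the median probe of each array. A value above 0 means more recovery than at the median probe, and a negative value means less. It is a relative yield and not a percentage of methylated cytosines.

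The arrays held 172669 probes of 45 to 60 nucleotides, placed on the rn4 assembly, and neighbouring probes were averaged into 16782 regions of a median 10 probes and 1655 bp. The files used here do not pair regions with genes, so regions are named by position and their gene, exon or promoter is not given. Over regions, 2 control arrays correlated at 0.94 to 0.97, 2 LTF arrays at 0.957 to 0.967, and a control with an LTF array at 0.902 to 0.954. These correlations share the fixed response of the probes. Across regions the median SD among the 3 control arrays was 0.112 and among the 3 LTF arrays 0.0785. All LTF arrays were read in 1 scan, on a day that held no other array, while control replicate 1 was read in another scan and control replicates 2 and 3 in 1 more. No scan and no day holds both groups, so no within-batch difference exists, and scan and group cannot be told apart. LTF arrays also carried more spots that the scanner software marked as outliers, 4.16% to 6.2% of probes against 0.218% to 1.04% on the control arrays.

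Control and LTF blood differed at 1221 of 16782 regions, 7.28% of those tested (limma, Benjamini-Hochberg adjusted p under 0.05). The MeDIP ratio was higher in LTF at 813 regions (4.84%) and lower at 408 (2.43%). Differences were modest, with a median of 0.42 among higher regions (range 0.20 to 1.24) and of -0.31 among lower regions (range -0.79 to -0.20), beside a median of 0.01 over all regions. A difference above 0.5 in size was reached by 241 higher and 20 lower regions. All LTF arrays lay above or below all control arrays at 4675 regions, 27.9% of those tested (2437 above, 14.5%, and 2238 below, 13.3%), and at 1205 of the 1221 that passed. The count leaned on single arrays. It was 389 without control replicate 3, 316 without LTF replicate 1 and 163 without LTF replicate 2.

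How the arrays were scaled moved the balance of the 2 directions. After quantile normalization, which gives every array the same distribution of values, 889 regions passed (5.3%), 456 higher (2.72%) and 433 lower (2.58%), so the share of higher calls went from 66.6% to 51.3%. Of the 1221 regions, 714 (58.5%) were among the 889, of which they made up 80.3%, and none passed in opposite directions. The share was 51.4% after loess and 83.7% after normexp background correction. With scan as a random block, where the fitted correlation of arrays of 1 scan was 0.390, 4 regions passed (0.0238%), all higher in LTF, while 2228 had an unadjusted p under 0.05. Quantile normalization together with the scan block gave 46 regions (0.274%), 27 higher and 19 lower, and all 46 were among the 1221.

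The region with the smallest p lay at chr8:17985146-17986876 (rn4) and was higher in LTF. Over its 9 probes the log2(MeDIP/input) was -1.65, -1.87 and -1.86 in the control arrays and -1.11, -0.94 and -0.94 in the LTF arrays. The groups were well apart, with LTF closer to the array median. The difference was 0.80 ± 0.08 (SE, limma, adjusted p = 0.000621), and 0.62 after quantile normalization (limma, adjusted p = 0.0051). It was 0.22 with normexp background correction and 0.35 in the authors' deposited table, and passed in both. Each of the 9 probes was higher on average in LTF, by 0.22 to 1.80, and 3 passed when tested as single probes. MeDIP signal was well above background on all control arrays at 2 of the 9 probes and on all LTF arrays at 5. Several control values of this region therefore rest on spots near background.

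Together with that region, 3 more passed with scan as a random block. At chr1:161329539-161331217 the 10 probes averaged -1.52, -1.12 and -1.29 in control and -0.39, -0.19 and -0.42 in LTF. No control array came near the LTF arrays, and the difference was 0.98 ± 0.12 (SE, limma, adjusted p = 0.0019), the largest in the whole comparison among regions of at least 8 probes. At chr1:142871937-142873647 the controls read -1.48, -1.63 and -1.83 and the LTF arrays -0.84, -0.69 and -0.85, a difference of 0.85 ± 0.10 (SE, limma, adjusted p = 0.00187). At chr3:69708965-69710684 the controls read -1.80, -1.66 and -1.71 and the LTF arrays -0.98, -0.82 and -0.92, a difference of 0.82 ± 0.10 (SE, limma, adjusted p = 0.0019). All 4 regions had low recovery in control blood and less low recovery in LTF blood, and their adjusted p with the scan block was between 0.0233 and 0.0238 (limma). In the 3 regions added here, control values also rest in part on spots near background. MeDIP signal was well above background on all control arrays at 3 of 10, 4 of 11 and 2 of 10 probes, in the order given. On all LTF arrays it was so at 6, 5 and 2 probes. Size depended on how the background was treated. With normexp the other 3 regions differed by 0.23, 0.21 and 0.18 in the order given and passed. In the authors' deposited table they differed by 0.36, 0.19 and 0.16, and the last 2 did not pass (limma, adjusted p = 0.107 for each). In the processed signals, the higher ratio of the 4 regions was carried mostly by the input channel. Relative to the array median, log2 input signal differed by -0.58 at the chromosome 8 region, -0.81 at the first and -1.0 at the second chromosome 1 region, and -0.76 at the chromosome 3 region. Log2 MeDIP signal differed by 0.16, 0.12, -0.20 and 0.0022 in the same order. The plot of single probes shows that the difference ran along most of each region, with 9 of 10 probes higher at the chromosome 3 region and every probe higher at the other 3.

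**Figure D1:**
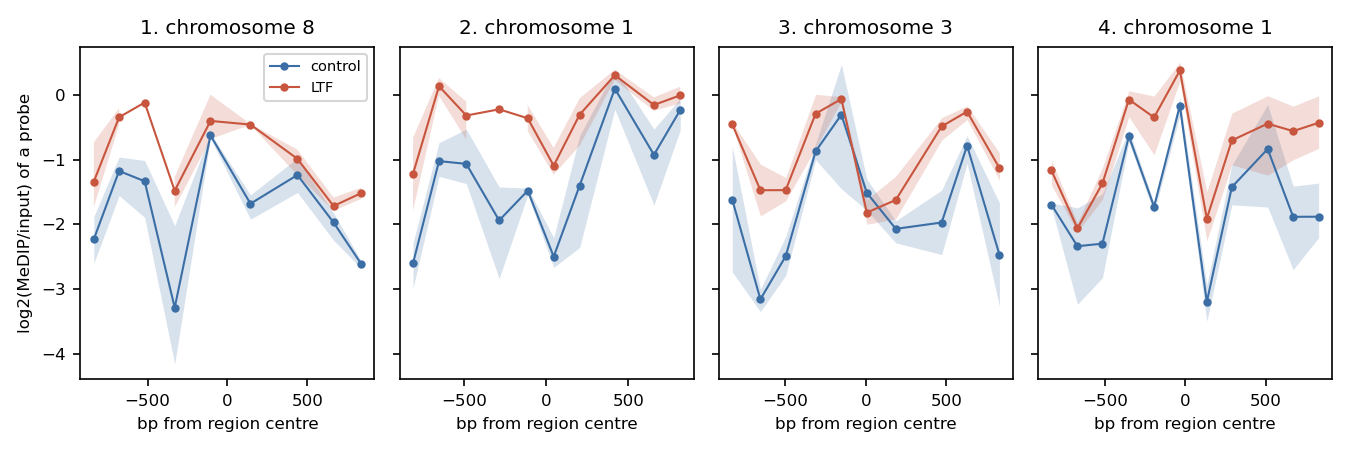
Log2(MeDIP/input) of each probe (y axis) against its distance in bp from the region centre (x axis) in the 4 regions that passed with scan as a random block, for control (blue) and LTF (red); points are means of up to 3 arrays and bands span the lowest to the highest array, left out where a spot was missing. The LTF line lies above the control line at every probe but 1, near the centre of the chromosome 3 region, where the difference is -0.31.

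The other 6 of the 10 higher regions with the smallest p had differences between 0.55 and 0.93. At chrX:128789630-128790740 the controls read -1.11, -1.08 and -1.24 and the LTF arrays -0.10, -0.32 and -0.22, so that a region of low recovery in control came close to the array median in LTF (0.93 ± 0.12, SE, limma, adjusted p = 0.0019). Near the start of the chromosome 18 sequence, at chr18:60769-61836, the controls were tightly grouped at -1.85, -1.81 and -1.79 and the LTF arrays spread over -0.95, -1.26 and -0.78 (0.82 ± 0.10, SE, limma, adjusted p = 0.00187). At chr4:179829450-179829835, a region of 3 probes, the controls read -0.62, -0.82 and -0.81 and the LTF arrays 0.02, 0.04 and -0.15. That region was 1 of 3 among the 10 where the difference was larger in the MeDIP than in the input signal, with 0.45 for MeDIP and -0.22 for input. Regions at chr8:41025841-41027570 (0.76), chr3:73533288-73534976 (0.74) and chr6:95547749-95549192 (0.55) complete the list. At its X-linked, chromosome 8 and chromosome 3 regions the MeDIP signal was itself lower in LTF, by -0.10, -0.18 and -0.08. Input signal differed there by -0.98, -0.90 and -0.77. At the chromosome 18 and 6 regions MeDIP signal differed by 0.39 and 0.33 and input signal by -0.38 and -0.17. The chromosome 6 region kept its direction but did not pass in the combined quantile and scan fit (limma, adjusted p = 0.0547), unlike the other 9. A single region of 5 probes, chr8:41309822-41310588, differed by more than 1, with controls at -1.81, -2.01 and -1.92 and LTF arrays at -0.72, -0.26 and -1.04 (1.24 ± 0.21, SE, limma, adjusted p = 0.00582). It was singled out after its values were seen, and its 3 LTF arrays were the most scattered of the regions named here.

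**Figure D2:**
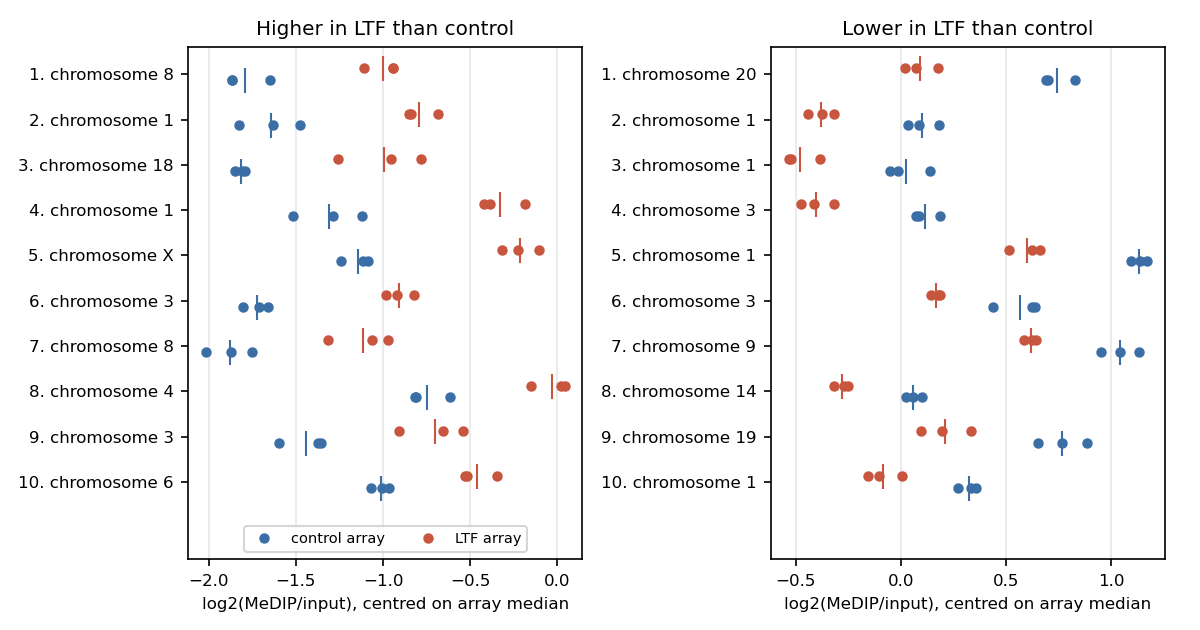
Log2(MeDIP/input) centred on the array median (x axis) in the 10 higher (left) and 10 lower (right) regions with the smallest p, in order of p from the top; each point is 1 array, control in blue and LTF in red, and ticks are group means. Control and LTF arrays do not overlap in any of the 20 regions, by the rule that chose them.

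Lower regions lay at another level in control, though control values are part of the difference that ranked these regions, which favours such levels. In the 10 with the smallest p, control means lay between 0.02 and 1.13, above the array median, whereas those of the 10 higher regions lay between -1.88 and -0.75. At chr20:4040890-4041642, the lower region with the smallest p, the 5 probes averaged 0.69, 0.83 and 0.70 in control and 0.18, 0.02 and 0.07 in LTF. All LTF arrays lay far below all control arrays, with a difference of -0.65 ± 0.08 (SE, limma, adjusted p = 0.00187). Of its probes 1 was marked as an outlier on the LTF arrays, and the 4 probes measured in both groups were each lower in LTF on every array (differences of -0.50 to -0.90). With outlier spots kept the region differed by -0.55 (limma, adjusted p = 0.00257).

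At chr1:67456312-67457417 the controls read 1.17, 1.09 and 1.14 and the LTF arrays 0.51, 0.62 and 0.66, a strongly recovered region that stayed above the median in LTF (-0.53 ± 0.09, SE, limma, adjusted p = 0.00469). At chr19:50201911-50203372 all 9 probes were lower in LTF, with controls at 0.89, 0.65 and 0.77 and LTF arrays at 0.20, 0.33 and 0.10 (-0.56 ± 0.09, SE, limma, adjusted p = 0.00498). At chr9:9087428-9089072 all 8 probes were lower, with controls at 0.95, 1.05 and 1.14 and LTF arrays at 0.58, 0.64 and 0.62. In all 3 the LTF arrays were the lower ones without overlap. At chr1:193269605-193271625 all 12 probes were lower, and controls at 0.27, 0.36 and 0.33 stood against LTF arrays at -0.10, 0.01 and -0.16. Regions at chr1:79678319-79679565 (-0.50), chr3:146267438-146268984 (-0.52), chr3:11372022-11373606 (-0.40) and chr14:18534428-18536019 (-0.34) also belong to this list.

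The region second in that list, chr1:82039053-82039420, rested on a missing probe. Its 3 probes averaged 0.18, 0.09 and 0.03 in control and -0.44, -0.32 and -0.38 in LTF, a difference of -0.48 ± 0.07 (SE, limma, adjusted p = 0.00253). The brightest of the 3 probes, at 0.87 in control, was marked as an outlier on the LTF arrays and left out there, and the other 2 probes differed by -0.12 and -0.06. With outlier spots kept the region differed by -0.10 (limma, adjusted p = 0.346). When each probe marked as an outlier on any of the 15 arrays was left out of all arrays, 985 of 16574 regions passed (5.94%), 629 higher and 356 lower, and 810 of the 1207 original calls that could be tested again were among them. The 25 named regions that could be tested that way all passed again, and the chromosome 1 region at 82039053 could not be tested.

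The largest decrease among regions of at least 8 probes lay at chr14:103656593-103657888, a region of very high recovery. Its 9 probes averaged 1.47, 1.43 and 1.99 in control and 0.86, 0.81 and 0.85 in LTF, so that control replicate 3 stood above the other controls and LTF arrays were tight (-0.79 ± 0.16, SE, limma, adjusted p = 0.0144). The other new regions in the list of largest decreases were chr18:62913692-62915152 (-0.53) and chr1:262555220-262556788 (-0.52). Among the largest increases, 3 regions of chromosome 3 joined those already described, at chr3:97301211-97302805 (0.95), chr3:68839972-68841769 (0.86) and chr3:71137523-71139031 (0.85). In each of these 3 the LTF arrays were less negative than every control array. Input signal differed there by -0.89, -1.20 and -0.67, and MeDIP signal by 0.01, -0.40 and 0.12. None of these 6 regions passed with the scan block, with adjusted p of 0.0778 to 0.216 (limma).

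Some regions that passed lay close together. Joining regions of 1 direction that passed and lay at most 500 kb apart gave 48 stretches with at least 3 higher regions, which held 340 of the 813, and 16 with at least 3 lower regions, which held 54 of the 408. The stretch with the most lay at chr3:67886627-74412261, where 58 of 228 regions (25.4%) were higher and 1 was lower, against 4.84% higher in the comparison as a whole. The median over its regions was -1.25, -1.21 and -1.40 in the control arrays and -0.88, -0.93 and -1.05 in the LTF arrays. Here every LTF array lay above every control array, and after quantile normalization 29 of the 58 still passed. At chr8:16840874-19301188, 19 of 44 regions (43.2%) were higher and none lower, with medians of -1.36, -1.42 and -1.60 in control and -1.06, -1.01 and -1.15 in LTF. At chr8:40321588-41645273, 19 of 61 (31.1%) were higher and none lower, with medians of -1.16, -1.25 and -1.45 in control and -0.87, -0.92 and -1.10 in LTF. Neighbouring regions are not independent, these stretches were chosen for their counts, and the spacing of regions on the array was not taken into account, so counts and shares are a description. Probes in all 3 stretches were long, at a mean of 55.8, 56.5 and 56.5 nucleotides, against a median of 48.4 over all regions. Of all 1306 regions with a mean probe length above 55 nucleotides, 22.7% were higher in LTF. This was near the 25.4% of the chromosome 3 stretch and below the 43.2% and 31.1% of the chromosome 8 stretches. Rat chromosomes 1, 3 and 8 carry large clusters of olfactory receptor genes, and whether these stretches lie in them was not determined here.

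By chromosome, the share of higher regions ran from 1.65% on chromosome 6 to 7.97% on chromosome 8, with 7.85% on chromosome 3 and 6.78% on chromosome 1. On the X chromosome 34 of 606 regions were higher (5.61%) and 9 lower (1.49%). The median ratio of X-linked regions was -0.23, -0.17 and -0.21 in the control arrays and -0.13, -0.15 and -0.20 in the LTF arrays. These overlapped, with a difference of 0.05 (exact permutation test, two-sided, p = 0.2, where 0.1 is the smallest p that 3 against 3 arrays allow).

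The direction of a difference followed the level of the region. When the 16782 regions were put in 5 bins of equal size by their mean ratio over all 15 arrays, 506 regions of the bin with the lowest recovery were higher in LTF (15.1%) and 9 lower. In the bin with the highest recovery 10 were higher and 171 lower (5.09%). Over all regions of a bin, passed or not, the median difference was 0.17 at the lowest recovery and -0.08 at the highest. After quantile normalization the lowest bin still held 232 higher and 62 lower regions, and the highest 36 higher and 86 lower, with median differences of 0.06 and -0.03. The interquartile range of probe values was 1.35, 1.47 and 1.55 in the control arrays and 1.23, 1.35 and 1.27 in the LTF arrays. The widest LTF array lay just below the narrowest control array, and the difference of -0.18 had the smallest p the design allows (exact permutation test, two-sided, p = 0.1). Each array was also regressed on the mean of the 15 arrays over regions. The slope, a measure of the contrast between poorly and well recovered regions, was 1.03, 1.09 and 1.24 in control and 0.92, 0.97 and 0.97 in LTF. Again the groups did not overlap (difference -0.17, exact permutation test, two-sided, p = 0.1). Neither measure was particular to LTF. The interquartile range was 1.22, 1.23 and 1.28 in the CaD arrays and 1.30, 1.20 and 1.24 with the second formula. In the DR model it was 1.60, 1.52 and 1.22. Slopes in the same order of groups were 0.94, 0.87 and 0.95, then 1.02, 0.92 and 0.90, then 1.13, 1.14 and 0.90.

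**Figure D3:**
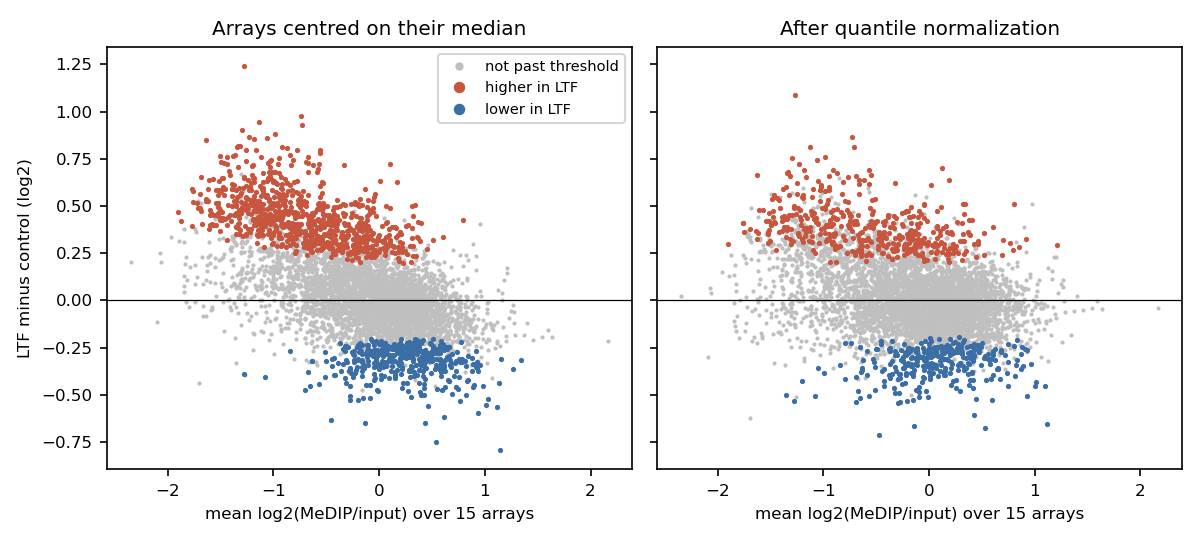
Difference in log2(MeDIP/input), LTF minus control (y axis), of each of the 16782 regions against its mean over 15 arrays (x axis), with arrays centred on their median (left) and after quantile normalization (right); red and blue points passed the threshold as higher and lower in LTF. Higher regions gather at low recovery and lower regions at high recovery, and the tilt is smaller on the right.

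Array designs with probes of variable length use longer ones in AT-rich DNA, to even out melting temperature. Probe length ran along with level and direction. Among 1306 regions with mean probe length above 55 nucleotides, 297 were higher in LTF (22.7%) and 1 was lower, with a median difference of 0.24. The lower one, on unplaced sequence from 34001258 to 34002289, differed by -0.39. Among 2774 regions with mean length of at most 46 nucleotides, 125 were lower (4.51%) and 18 higher, at a median of -0.06. Quantile normalization left 137 higher and 4 lower in the first class, with a median difference of 0.12, and 29 higher and 97 lower in the second. Within 1 bin of level the share of higher regions also differed by length. In the bin of lowest recovery, regions with a mean probe length above 52 nucleotides were higher in LTF at 421 of 2152 (19.6%) and lower at 3. Of the 1205 regions with shorter probes in that bin, 85 were higher (7.05%) and 6 lower. After quantile normalization 196 were higher and 22 lower among those with longer probes. Among those with shorter probes it was 36 and 40. Mean ratios in this bin ran from -2.42 to -0.55, so the split does not hold level fixed and cannot separate level from length.

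The difference also ran along with length among single probes. Probes of 60 nucleotides averaged -0.94, -1.12 and -1.28 in the control arrays and -0.86, -0.93 and -0.98 in the LTF arrays, with LTF replicate 3 below control replicate 1. The difference was 0.19 (exact permutation test, two-sided, p = 0.2). Probes of 55 nucleotides differed by 0.12 and those of 50 by 0.07, without overlap (exact permutation test, two-sided, p = 0.1 for each). Probes of 45 nucleotides differed by -0.05 with overlapping arrays (exact permutation test, two-sided, p = 0.2). Adjusted over the 4 lengths by Benjamini-Hochberg, each of these exact permutation tests gave p = 0.2. After quantile normalization the 60-nucleotide difference was 0.07, and there every LTF array lay above every control array.

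Both channels differed between the groups. Tested alone, the log2 MeDIP signal differed at 3378 regions (20.1%) and the log2 input signal at 6749 (40.2%, both limma, Benjamini-Hochberg adjusted p under 0.05), each centred on its array median. Across the 813 higher regions the median difference was 0.15 in the MeDIP signal and -0.22 in the input signal. Across the 408 lower regions it was -0.21 and 0.18, and over all regions 0.07 and 0.11. The MeDIP difference was the larger of the 2 in size at 373 of the 813 higher and 210 of the 408 lower regions. Input DNA is not enriched for methylation, and what its differences contribute was not tested. MeDIP signal was well above background on all arrays of the group for 58.6% of the probes of higher regions in control and 73.8% in LTF, against 78.2% and 86% over all regions. For lower regions the shares were 87% and 89.8%. The higher set thus holds more control spots near background than the regions as a whole.

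The differences were spread along the regions. In 686 higher and 314 lower regions with probes in each of 5 equal parts of their length, mean differences per part were 0.39 to 0.46 in the higher and -0.30 to -0.27 in the lower ones.

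The regions that passed were also set beside the other diabetic groups, which entered the main fit only through the shared spread. These comparisons share the control arrays, and the regions were chosen on LTF and control, so the values that follow are descriptions. Over the 813 higher regions the median of an array averaged -1.01 ± 0.07 in control and -0.56 ± 0.06 under LTF, with the DR model at -0.78 ± 0.14, the CaD group at -0.63 ± 0.04 and the second formula at -0.69 ± 0.06 (SD, n = 3 each). Over the 408 lower regions it averaged 0.43 ± 0.01 in control and 0.13 ± 0.02 under LTF, with 0.34 ± 0.06, 0.20 ± 0.02 and 0.20 ± 0.02 for the other groups. By group mean, untreated diabetic rats lay between control and LTF, as did the rats of both other treatments. The groups also differed in scan. All second formula arrays shared a scan with CaD replicate 3, and CaD replicates 1 and 2 shared one with DR model replicate 3. DR model replicate 1 was read with control replicates 2 and 3, and DR model replicate 2 in a scan without other arrays. What scan contributes to these orders was not tested. The LTF mean was the highest of the 5 groups in 555 of the 813 higher regions (68.3%) and the lowest in 299 of the 408 lower regions (73.3%). All LTF arrays lay beyond all 12 other arrays in 84 higher (10.3%) and 87 lower regions (21.3%). All control arrays lay beyond all 12 others, on the opposite side, in 240 higher (29.5%) and 69 lower ones (16.9%). None of these orders was counted over all 16782 regions. Choosing regions on LTF against control favours these groups at the ends, so the shares are not read as a result.

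**Figure D4:**
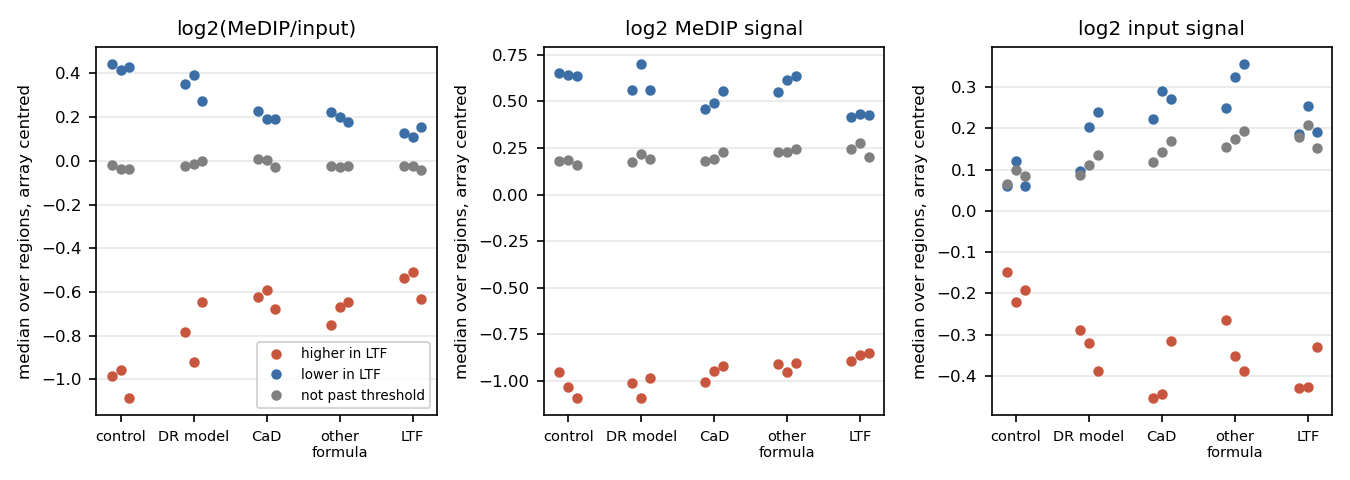
Median over the higher (red), lower (blue) and remaining (grey) regions in each of the 15 arrays, for log2(MeDIP/input), log2 MeDIP signal and log2 input signal, each centred on its array (y axes), by group (x axis); each point is 1 array. In the ratio, LTF arrays sit at -0.63 to -0.51 over higher regions and at 0.11 to 0.15 over lower regions, against -1.09 to -0.96 and 0.42 to 0.44 in control.

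Single regions followed several of these orders. At chr8:17985146-17986876 the difference from control was 0.80 under LTF, 0.79 under CaD, 0.70 under the second formula and 0.41 without treatment. At the X-linked region from 128789630 it was 0.93, 0.57, 0.41 and 0.20 in the same order, with DR model replicate 3 at -0.57 and the other DR model arrays at -1.12 and -1.16, level with the controls. At chr14:103656593-103657888 the 3 treated groups differed from control by -0.79 (LTF), -0.88 (CaD) and -0.78 (second formula), and the DR model by 0.02, with arrays at 1.85, 1.80 and 1.32. At chr9:9087428-9089072 it was -0.43, -0.31, -0.32 and -0.02. At these last 2 regions the untreated DR model differed from control by 0.02 and -0.02, and its replicate 3 was the lowest array of that group at both. DR model replicate 3 was read in the scan of CaD replicates 1 and 2, and whether scan bears on its values was not tested. At chr3:11372022-11373606 the order was another, with -0.40 for LTF and -0.38 for the DR model, -0.17 for CaD and -0.25 for the second formula.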

How the data were processed

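Scanner output of Feature Extraction 11.0.1.1, with probes placed on rn4 per the file headers, was deposited by the authors. Per the file headers it holds an intensity per spot and channel, background-subtracted and dye-normalized by a linear method, and the log10 ratio of Cy5 over Cy3. A value table that the authors also deposited was assumed to be log2. The sources used here do not state its log base, centring or smoothing. The submitters' processing notes name limma, with no role.

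Log2 of Cy5 over Cy3 processed signal was taken without 6856 control spots and without spots marked as outliers, and centred on each array's median. Probes at most 500 bp apart were joined, and regions of at least 3 probes were averaged: 884 of 17668 runs had fewer probes and 2 lacked a value. Limma 3.58.1 (lmFit and eBayes, R 4.3.3) was fitted over 15 arrays with 5 group means, and p-values were adjusted by Benjamini-Hochberg over 16782 regions. Single values per array were tested by exact permutation over the 6 arrays. Normexp, an alternative, used spot medians, not the planned means. Fits were tested on simulated data. Planned gene and GC classes were not used, since the files pair probes with neither.

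Named regions are those of smallest p without overlap of arrays (10 in each direction), those that also passed after quantile normalization and with scan as a random block, the 5 largest differences each way among regions of at least 8 probes, and the 3 stretches with most regions of 1 direction. Comparison, lists and rules were chosen with earlier results of these data known. The precision is limited by 3 arrays per group.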

Additional observations from a re-analysis of the deposited data

How the results depend on the processing

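The count of 1221 regions moved by over 1.5 times in several settings, besides some that left out 1 array. These were scale normalization (754), loess (2291), the median in place of the mean over probes (664) and a fit on the 6 arrays alone (446). Scan (4) or scan day (527) as a random block, the replicate number as a block (726), and single probes (3865) did so too. Chosen after seeing the data, quantile normalization with the scan block gave 46, and with probes never marked as outliers the count was 646 after quantile normalization and 5 with the scan block. The cause of these moves was not tested. Leaving out 1 array gave 163 to 1260, so some of these fits also moved the count by over 1.5 times. The replicate numbers do not pair the arrays, whose deviations correlated at 0.083, 0.108 and -0.000271 for the same number. Other settings gave 889 with quantile normalization, 1721 with normexp, 1156 from the authors' deposited table, 1517 with outlier spots kept and 1303 with probes well above background. Differences were smaller with normexp, 0.08 to 0.34 in the 10 higher and -0.33 to -0.07 in the 10 lower regions of smallest p. The region at chr1:82039053-82039420 turned to 0.0141 in the authors' deposited table. The region at chr18:62913692-62915152 turned to 0.0781 with only probes well above background. The cause of neither was tested. The other 24 named regions kept their sign in every setting that could be run, but 9 of the 26 did not pass with normexp, 7 with the median over probes, and 6, besides the reversed one, in the authors' deposited table. With only probes well above background, 21 of the 26 could be tested, and 7 did not pass, besides the reversed one. The region of smallest p, at chr8:17985146-17986876, and the one at chr3:69708965-69710684 could not be tested there. Scan covers the LTF group whole, so no setting here separates the 2.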
